A study of Homo sapiens with 7 samples.

Results

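CNOT6L silencing was examined on 1 array of NCI-H520, a cultured human lung cancer line of squamous type, set against the 2 arrays that lay beside it in slide row 2. These mates came from cells given an shRNA against CNOT7 or against nocturnin (NOC, gene symbol NOCT). The 3 arrays were chosen by their titles and slide row out of 7 arrays in all. The remaining 4 arrays, in slide row 1, came from cells given the empty vector, a non-target shRNA, or an shRNA against PARN or CNOT6. All 7 groups shared the same handling: 6 µg of pLKO.1 plasmid was introduced with cationic liposomes, puromycin at 6 µg/mL followed at 12 h, and the cells were collected at 72 h. Each group was 1 array of 1 transfection, so there was no replicate check, calls were made by fold alone apart from 1 model fit named as such, and precision is limited by how few arrays there are. The mates were themselves given an shRNA, so a difference from both is a difference from cells given CNOT7 or NOC shRNA rather than from untreated cells. In the labels the CNOT6L shRNA carries the RefSeq accession of NOC, so which sequence this shRNA targets is uncertain.

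Deadenylases are exonucleases that shorten the poly(A) tail of mRNA, a step that precedes decapping and decay of most transcripts. CNOT6L and its paralog CNOT6 are alternative catalytic subunits of the CCR4-NOT complex, which also holds a second catalytic subunit, CNOT7 or its paralog CNOT8, on the CNOT1 scaffold. CNOT6L has been linked to the mRNA of CDKN1B, the cell cycle inhibitor p27, and to cell cycle arrest and senescence genes. Nocturnin is related to the CCR4 enzymes by its nuclease domain and is known for its rhythmic expression. Loss of a deadenylase would leave its target mRNAs longer lived, so higher and lower mRNA levels were both recorded.

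Levels are log2 processed signals from which the array's own 75th percentile was subtracted, so that 0 is the 75th percentile and 1 unit is 2-fold. Of 42405 gene probes, 36371 were well above background on all 3 arrays. The 75th percentile of the processed signal was 3617 on the CNOT6L shRNA array, 3986 on the CNOT7 shRNA array and 3195 on the NOC shRNA array, and no gene spot was saturated. Between spots of probes printed on 2 spots, the median SD was 0.07, 0.05 and 0.05 log2 on these arrays in that order. Over all probes, the SD of the log2 differences was 0.31 between CNOT6L and CNOT7 shRNA, 0.33 between CNOT6L and NOC shRNA, and 0.28 between the mates. Image extraction for NOC shRNA took place on a different day, which cannot be told apart from its shRNA. Epithelial markers (EPCAM, CDH1, KRT8, KRT18 and KRT19) passed on all 3 arrays, with a summed level that varied by 0.05 log2, whereas only 3 of 6 squamous and basal markers passed (SOX2, KRT5 and KRT6A) and TP63, KRT14 and DSG3 did not. The summed level of those 3 varied by 0.30 log2, the widest of the marker lists. It was 4.87 with CNOT6L shRNA, 4.61 with CNOT7 shRNA and 4.91 with NOC shRNA. Most of it was SOX2, which read 4.84, 4.58 and 4.88 in that order. The dimmer KRT6A stood 0.63 above the CNOT7 shRNA array and 0.13 above the NOC shRNA array. Of the fibroblast, immune and endothelial markers 2 of 5, 4 of 4 and 3 of 3 passed, with summed levels that varied by 0.14, 0.04 and 0.13 log2 over the 3 arrays, and none was past 2-fold from both mates. The immune marker PTPRC stood 0.75 and 0.87 above them.

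CNOT6L mRNA was lowest of all 7 arrays in the cells given its shRNA, by both of its probes. By the first probe (A_33_P3249214) its level was −1.98 on the CNOT6L shRNA array, −1.42 on the CNOT7 shRNA array and −1.45 on the NOC shRNA array, and the slide row 1 arrays spanned −1.35 to −1.17. By the second (A_33_P3277943) it was −2.13, against −1.62 and −1.72 on the mates and −1.44 to −1.20 in row 1. Neither probe overlapped any other array, and the mean of its differences left the mRNA at 68.8% and 72.7% of the mates. This is short of the 2-fold limit used here to call a probe. For comparison, probes were ranked by signal into 5 classes of equal size. Among the 7274 probes of the same signal class, 20 (0.275%) lay as far below both mates as the first CNOT6L probe and 45 (0.619%) as far as the second.

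NOCT mRNA, whose accession the CNOT6L shRNA shares in the labels, was not lowest on this array. Its level was −4.67 with CNOT6L shRNA, −4.89 with CNOT7 shRNA and −4.96 with NOC shRNA, and −4.74 to −4.32 in row 1, so the CNOT6L shRNA array lay within the row 1 range and 0.22 and 0.29 log2 above the mates. On the NOC shRNA array this NOCT probe, on 1 spot, was lowest of the 7 but only 0.07 log2 below the CNOT7 shRNA array. It gave no clear check of the NOC label, and it cannot decide which sequence the CNOT6L shRNA targets. CNOT7 mRNA served as a check on the label of the CNOT7 shRNA array. Its probes read 1.25 and 1.31 on the CNOT6L shRNA array and 1.37 and 1.20 on the NOC shRNA array, but 0.21 and 0.09 on the CNOT7 shRNA array, the lowest of the 7 by each probe.

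**Figure D1:**
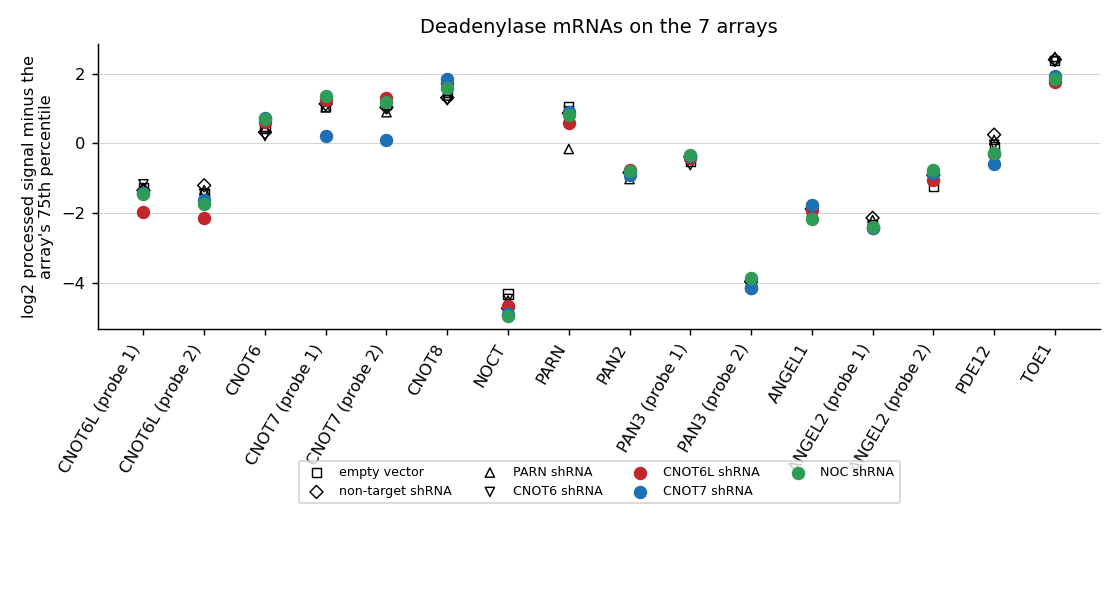
Level of each deadenylase probe (log2 processed signal minus the array's 75th percentile) on the 7 arrays, with 1 point per array. Filled circles are the slide row 2 arrays and open symbols the row 1 arrays. Both CNOT6L probes are lowest on the CNOT6L shRNA array (−1.98 and −2.13).

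The other deadenylase mRNAs stayed close to the mates. CNOT6, the paralog of CNOT6L, read 0.62 on the CNOT6L shRNA array, 0.74 with CNOT7 shRNA and 0.72 with NOC shRNA. CNOT8, the paralog of CNOT7, read 1.75, 1.85 and 1.59 on 10 spots each. PARN, a poly(A)-specific ribonuclease outside CCR4-NOT, read 0.59 against 0.90 and 0.82, below both mates by 0.31 and 0.23. The PARN shRNA array alone was lower, at −0.16. PAN2 and PAN3, the subunits of the complex that trims long tails, differed from the mates by at most 0.28 log2 on any probe. ANGEL1, ANGEL2, PDE12 and TOE1 differed by at most 0.29. Of 12 deadenylase genes, none was past 2-fold or past 1.5-fold from both mates in either direction.

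The same held for the proteins that act with them. All 8 genes of the CCR4-NOT scaffold list differed from both mates by 0.14 log2 or less in a shared direction, with a list median of 0.06 beside 0.02 over all 17309 genes. The 19 genes of decapping and 5′-to-3′ decay had a median of −0.02, and the 22 measured genes that recruit deadenylases had a median of 0.01. Of the recruiters, SAMD4A, a Smaug-type RNA-binding protein, was the only one past 1.5-fold. Its level was −3.64 with CNOT6L shRNA, −4.25 with CNOT7 shRNA and −4.37 with NOC shRNA, above the row 1 arrays as well, the nearest of which read −4.02.

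mRNAs linked to CNOT6L were measured next, to see whether the transcripts that earlier work ties to this enzyme stood higher. CDKN1B read 1.66 with CNOT6L shRNA, 1.67 with CNOT7 shRNA and 1.73 with NOC shRNA on its 10-spot probe, where the SD between spots was 0.06, 0.06 and 0.05. A second CDKN1B probe, on 1 spot, read 1.09, 1.25 and 1.41 and was lowest of the 7 arrays on the CNOT6L shRNA array. Neither probe stood above the mates. GDF15, a stress-induced cytokine, was the highest of the 7 arrays at 3.74, against 3.29 and 3.48 on the mates. FGF21, a metabolic hormone, stood 0.28 and 0.48 above the mates at −4.33 but below 4 arrays of the series. CDKN1A (p21) differed by 0.23 and 0.13, and CDKN2A (p16) by 0.00 and 0.03 on one probe and 0.08 and 0.15 on the other. IGFBP5, a binding protein of insulin-like growth factors, read 1.56 against 1.08 and 1.75 and so lay between the mates. None of these 6 genes reached 1.5-fold from both mates.

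Across the array, 148 probes (0.407%) were at least 2-fold higher with CNOT6L shRNA than on both mates and 64 (0.176%) at least 2-fold lower. Of these, 51 and 14 carried a gene symbol. The same rule applied to the CNOT7 shRNA array against the other two arrays gave 43 higher and 10 lower, and to the NOC shRNA array 43 and 29. The counts rested on both mates: against the NOC shRNA array alone they were 386 and 143, and against the CNOT7 shRNA array alone 239 and 165. At 4-fold 7 and 1 remained. Background correction by normexp in place of the processed signal left 17 and 6, and quantile normalization gave 94 higher and 104 lower, with 47.5% of calls higher in place of 69.8%. The linear model of limma with the mates as 1 arm (1 residual degree of freedom, and the CNOT6L shRNA array assumed to vary like the mates) called 40 higher and 23 lower at an adjusted p under 0.05, all 63 among the 2-fold calls.

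**Figure D2:**
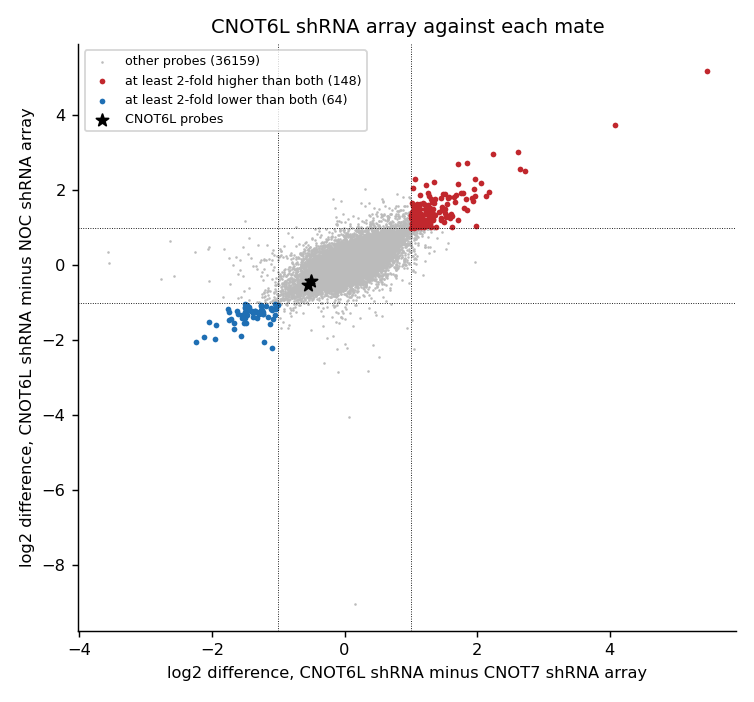
Each point is 1 of the 36371 probes well above background on the 3 arrays, with its log2 difference from the CNOT7 shRNA array on the x axis and from the NOC shRNA array on the y axis. Dotted lines mark 2-fold, 148 probes lie beyond it above both mates and 64 below both, and the stars, the CNOT6L probes, lie inside it.

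The calls lay among dim probes. In the dimmest of the 5 signal classes 101 probes were called higher and 27 lower, in the next 43 and 26, in the middle class 3 and 9, in the next 1 and 2, and in the brightest none. Probes for long intergenic noncoding RNAs held 55 of the higher and 36 of the lower calls, 0.808% and 0.529% of the 6807 such probes, while probes with a RefSeq mRNA accession held 45 and 14, 0.205% and 0.0639% of 21921. Within the lower 2 signal classes the shares were 1.30% and 0.724% for the noncoding and 0.734% and 0.196% for the mRNA probes. Most called probes were printed once: 138 of the higher and 63 of the lower calls were on 1 spot, as were 28747 of all 36371 probes. Of the 1-spot probes 0.48% were called higher and 0.219% lower, against 0.131% and 0.0131% of probes on more spots.

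Their place on the array was uneven. The printed grid was divided into 16 blocks of 4 by 4, over probes on 1 spot. Of the 63 lower calls, 37 lay in a single block (rows 191 to 287, columns 85 to 124) and 55 (87.3%) in it and 2 adjoining blocks, which held 18.6% of the probes. In that block 2.09% of probes were called lower, against at most 0.546% in any other. The higher calls lay to the left of it, with 70 of 138 (50.7%) in the 3 blocks with the most of them, at columns 1 to 84, that held 18.8% of the probes. Over dim probes (the lower 2 signal classes), the median difference from the CNOT7 and NOC shRNA arrays was −0.20 and −0.23 in the block rich in lower calls and 0.38 and 0.38 in the block of the same rows at columns 1 to 42. In the first 8 blocks (rows 1 to 190) there were 52 higher and 4 lower calls among 14436 probes, 0.360% and 0.0277%, and in the last 8 there were 86 and 59 among 14311. The part of array position in the calls was not tested further. The second CNOT6L probe lay in the block rich in lower calls and the first CNOT6L probe elsewhere. In that block the 325 probes of the second probe's signal class had median differences of 0.08 and 0.05. A block median does not describe a single spot, and the part of position in the second CNOT6L reading was not tested.

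**Figure D3:**
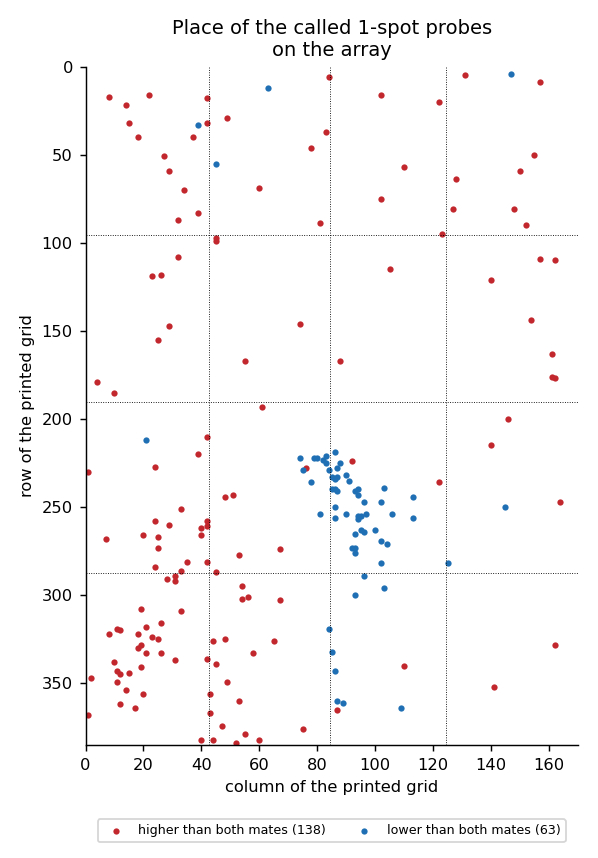
Row and column of the printed grid for the 138 probes called higher and the 63 called lower that were printed on 1 spot, with dotted lines bounding the 16 blocks. The lower calls gather at rows 191 to 287 and columns 85 to 124, and the higher calls in the last rows at the low columns.

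Set against slide row 1, the lower calls were mostly probes on which the mates stood high. In 56 of the 64 lower calls (87.5%) both mates lay above all 4 row 1 arrays, a share of 11.7% over all probes, and in 7 (10.9%) the CNOT6L shRNA array lay below all 4, where 24.9% of all probes did. Among the 148 higher calls the CNOT6L shRNA array lay above all row 1 arrays in 53 (35.8%, against 18.2% of all probes), and both mates lay below them in 53 (35.8%, against 21.7%). The calls were chosen on the same values, which favours such positions, so nothing is read from these contrasts. Only 16 higher and 3 lower calls were also 2-fold from both the empty-vector and the non-target array.

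Of the genes called lower, 4 lay in the first 8 blocks, away from the crowded region. APCDD1, an inhibitor of Wnt signalling at the membrane, read −1.84 with CNOT6L shRNA, −0.59 with CNOT7 shRNA and −0.79 with NOC shRNA, and −1.47 to −1.19 in row 1. RFTN1, a lipid raft protein, read −6.77 against −5.55 and −4.73, and −5.80 to −3.37 in row 1. SYNPR, a synaptic vesicle protein, read −5.17 against −3.94 and −3.86, and −4.81 to −3.26 in row 1. These 3 genes were lowest of the 7 arrays on the CNOT6L shRNA array, each on 1 spot and with no other probe above background. PALM2AKAP2, an anchor of protein kinase A, read −7.08 against −5.98 and −4.88, but lay within row 1, where 1 of 4 arrays was well above background, and its second probe gave −0.45 and 0.43.

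The other 10 named lower calls lay in the crowded blocks. KRTAP10-12, a hair keratin-associated protein, read −3.92 with CNOT6L shRNA against −2.17 and −2.74, and was the only one of the 10 below all row 1 arrays, whose lowest was −2.55. A second KRTAP10-12 probe gave −0.08 and 0.02. OR13H1 (an olfactory receptor), EVI2A, KIR2DS4 (a receptor of natural killer cells), CIDEB (a lipid droplet protein), UMODL1, TMC2 (a channel subunit of hair cells), PCED1B, SUN5 (a nuclear envelope protein of sperm) and SLC14A1 (a urea transporter) were not below row 1, with OR13H1 above all of it and the other 8 within it, and with mean differences from −1.77 for EVI2A to −1.04 for SLC14A1. Of the row 1 arrays, none was well above background for UMODL1, 1 for TMC2, and 2 each for OR13H1, EVI2A, KIR2DS4, SUN5 and SLC14A1, so row 1 levels are only bounds there. On UMODL1 the probes were opposed, since 2 others stood 0.65 to 0.78 above both mates. Keratin-associated proteins, olfactory receptors and KIR genes belong to families with related members. Whether these probes separate 1 member from another was not checked. Of the 7 other measured probes of the genes called lower, none was 1.5-fold lower than both mates and 2 were 1.5-fold higher. Over all genes, each read by its brightest probe, 0.526% were 1.5-fold lower and 1.37% higher.

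Among the genes called higher, the widest difference on a probe whose spots did not disagree was CFAP91, a protein of the radial spokes of cilia. Its level was −3.81 with CNOT6L shRNA against −7.89 and −7.55 on the mates and −7.58 to −7.26 in row 1, on 1 spot, so that 1 array of 7 stood 15.1-fold above the mean of its mates. TIFA, an adaptor that links cell surface receptors to NF-κB signalling, read −4.83 against −6.80 and −7.13 and no more than −7.66 in row 1. NFIA, a transcription factor, read −5.58 against −7.54 and −7.43, but its other probe gave 0.08 and 0.12. The CNOT6L shRNA array was the highest of the 7 on these probes, as it was on 9.76% of all probes, but they were chosen for standing above both mates and nothing is read from that share. Only 1 of the 4 row 1 arrays was well above background for CFAP91 and none for TIFA or NFIA. The size of these differences depended on the background correction. With normexp the mean differences of CFAP91, TIFA and NFIA were 1.58, 1.06 and 0.33 log2, in place of 3.92, 2.13 and 1.91.

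SEMA5B, a semaphorin that guides axons, read −4.42 against −6.35 and −6.22, and its other probe gave 0.08 and −0.13. STK31, a kinase of germ cells, read −2.92 against −4.86 and −4.65, with 0.20 and −0.21 on its other probe. TXNDC2, a thioredoxin of sperm, read −4.03 against −5.86 and −5.78. KRTAP5-3 was 1.69 and 1.88 above the mates, and PLA2G4F, a cytosolic phospholipase, 1.33 and 1.36 with 0.27 and 0.28 on its other probe. These 5 genes were likewise the highest of the 7 arrays. In the order named, their mean differences were 1.86, 1.83, 1.80, 1.78 and 1.35. With normexp they were 0.93, 1.36, 1.15, 0.89 and 1.01. The remaining 7 of the 15 widest named differences did not exceed row 1: GNAO1-DT and HCG22 (noncoding transcripts), EGFEM1P (a pseudogene), TSBP1, TMEM71, DCD (the sweat antimicrobial dermcidin) and HTR4 (a serotonin receptor). Both mates lay below all row 1 arrays for GNAO1-DT, EGFEM1P, TSBP1 and DCD, the NOC shRNA array alone did for HCG22 and HTR4, and neither did for TMEM71. GNAO1-DT read −4.48 with CNOT6L shRNA, −7.20 and −6.99 on the mates and −6.47 to −3.99 in row 1. Its probe and that of TMEM71, on 1 spot each, lay in grid blocks rich in higher calls. Of the 41 named higher calls on 1 spot, 18 lay in the 3 blocks with the most higher calls, which held 18.8% of the probes.

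On 3 further genes the spots of the probe disagreed by more than 1 log2, and these were kept apart. For TGM3, an enzyme that crosslinks the cornified envelope, 1 spot read 4.07 on the CNOT6L shRNA array and the other −6.54, while every other array lay between −6.97 and −6.21 on both. For TLR5, the receptor of bacterial flagellin, the spots stood 0.02 and 2.92 above the CNOT7 shRNA array, and for TFPI, an inhibitor of coagulation, 0.33 and 1.69. No gene had 2 probes past 2-fold in the same direction. Of the 17 other probes measured for the genes called higher, 2 were past 1.5-fold in the same direction and 10 stood above 0. Over all genes, each read by its brightest probe, 1.37% were 1.5-fold higher and 9525 of 17309 had a mean difference above 0.

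A few chemokine genes were lower than both mates. At a limit of 1.5-fold, chosen after the values were seen, 237 of 17309 genes (1.37%) were higher than both mates and 91 (0.526%) lower, each gene read by its brightest probe. Of 21 measured genes of the cytokine and chemokine list, 4 were lower and none higher. The 4 were CXCL1, CXCL2 and CXCL3, chemokines that draw neutrophils, and CCL20, which draws cells bearing CCR6. The list median was −0.01, so the rest of the list did not share the difference. SELE, the endothelial adhesion molecule E-selectin, is not on the list and was added because both of its probes passed the same limit.

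CXCL1 read −3.97 on the CNOT6L shRNA array, −3.02 on the CNOT7 shRNA array and −2.29 on the NOC shRNA array by one probe, and −4.61, −4.05 and −3.58 by the other. CXCL2 read −3.86, −3.02 and −2.20 by one probe and −3.57, −2.83 and −2.33 by the other. CXCL3 read −4.28, −3.35 and −2.77. In each reading the NOC shRNA array was highest of the 3 and the CNOT6L shRNA array lowest. CCL20 read −5.13, −4.51 and −3.87, and SELE −4.20, −3.36 and −2.60 by one probe and −7.19, −6.38 and −5.84 by the other.

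All 8 probes of these 5 genes were lowest of the 7 arrays on the CNOT6L shRNA array, as were 11.0% of all probes, but these genes were chosen for being below both mates and nothing is read from that share. The differences ran from −0.95 to −0.55 against CNOT7 shRNA and from −1.68 to −1.03 against NOC shRNA. The CNOT6 shRNA array was the highest of the 7 on every one of the 8 probes, at −1.40 for CXCL1 by the first probe. Against the empty-vector and non-target arrays the CNOT6L shRNA array was also lower on all 8, by 0.59 to 2.16 log2. CXCL1, CXCL2 and CXCL3 are close paralogs, so their probes may not be independent readings. The 1-spot CXCL2 probe (−3.57) lay in the grid block rich in lower calls and the 1-spot SELE probe (−7.19) in a block rich in higher calls, while the other 6 were printed on 2 spots.

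**Figure D4:**
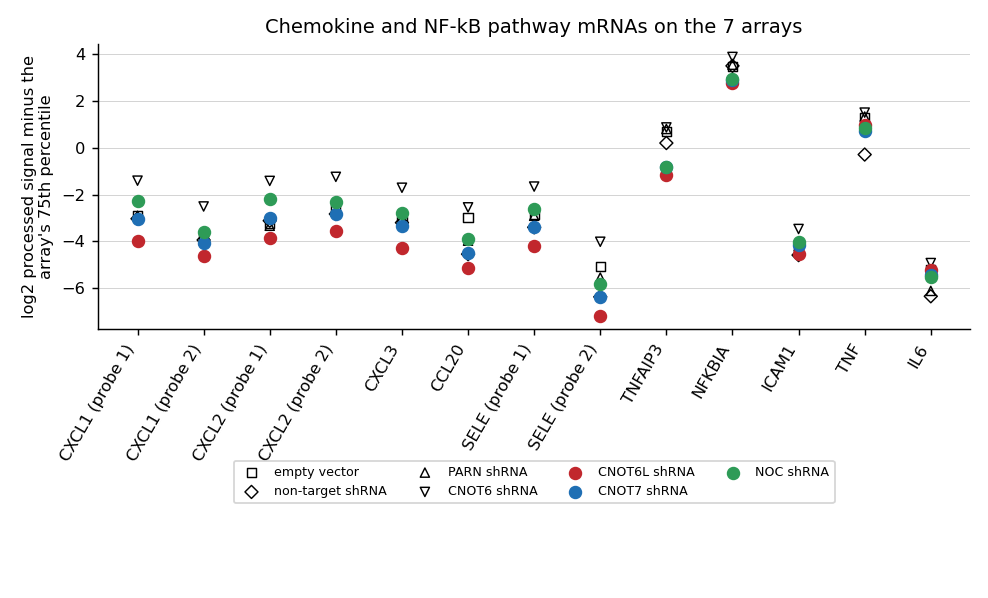
Level (log2 processed signal minus the array's 75th percentile) of the chemokine probes, SELE and other genes of the NF-κB pathway on the 7 arrays, with 1 point per array. The CNOT6L shRNA array (red) is lowest on the 8 probes of CXCL1, CXCL2, CXCL3, CCL20 and SELE. It is also lowest for TNFAIP3 and NFKBIA, but not for ICAM1, TNF or IL6.

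Other products of the same signalling route moved less or not at all. TNFAIP3, which limits NF-κB activity, read −1.17 with CNOT6L shRNA, −0.83 with CNOT7 shRNA and −0.81 with NOC shRNA. NFKBIA, the inhibitor IκBα, read 2.78, 2.90 and 2.95 on 10 spots, and ICAM1, an adhesion molecule, −4.55, −4.16 and −4.01. These stood lower than on both mates by less than 1.5-fold, and for TNFAIP3 and NFKBIA all 3 row 2 arrays lay below all of row 1. TNF read 0.96 against 0.74 and 0.84 and IL6 −5.22 against −5.42 and −5.52, slightly above the mates, although the SD between the 10 spots of IL6 was 0.49, 0.42 and 0.47.

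The promoters of the 5 lower genes are shown because these mRNAs were low together, with NFKBIA and IL6, which were not 1.5-fold lower, beside them. RefSeq promoters of build GRCh38.p14, 250 bases before to 50 after each gene's start, were searched on both strands for the 10-letter consensus of NF-κB. It matched 3956 of 35116 promoters (11.3%) and 8 of 19 on the cytokine and chemokine list (42.1%). CXCL1, CXCL2 and CXCL3 each held an overlapping match on both strands, and TNFAIP3 held 2 matches. CCL20, SELE, NFKBIA and IL6 held 1 each and TNF none in this window. Each stretch below runs 5′ to 3′ on the strand of the gene, ends before its start, and has the match in capitals.
CXCL1: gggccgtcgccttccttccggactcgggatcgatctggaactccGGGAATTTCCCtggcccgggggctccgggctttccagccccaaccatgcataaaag
CXCL2: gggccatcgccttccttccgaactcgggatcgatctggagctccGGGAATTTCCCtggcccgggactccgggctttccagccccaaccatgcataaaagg
CXCL3: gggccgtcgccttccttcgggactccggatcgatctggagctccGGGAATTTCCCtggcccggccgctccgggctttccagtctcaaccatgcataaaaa
CCL20: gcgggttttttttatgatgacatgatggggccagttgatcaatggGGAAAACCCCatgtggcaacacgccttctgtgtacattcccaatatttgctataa
SELE: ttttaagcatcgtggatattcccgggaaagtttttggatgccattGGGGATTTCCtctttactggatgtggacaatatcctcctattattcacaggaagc
NFKBIA: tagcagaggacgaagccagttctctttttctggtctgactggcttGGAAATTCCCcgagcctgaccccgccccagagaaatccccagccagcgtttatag
IL6: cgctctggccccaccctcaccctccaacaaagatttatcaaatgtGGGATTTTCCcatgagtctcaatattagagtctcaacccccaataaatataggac

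These lie at chr4:73869270-73869369 on the plus strand for CXCL1, chr4:74099218-74099317 on the minus strand for CXCL2, chr4:74038713-74038812 on the minus strand for CXCL3, chr2:227813718-227813817 on the plus strand for CCL20, chr1:169734119-169734218 on the minus strand for SELE, chr14:35404776-35404875 on the minus strand for NFKBIA and chr7:22727082-22727181 on the plus strand for IL6. The CXCL promoters are near copies of each other and share the same letters at the match. The genes shown for comparison hold a match too. No binding was measured, and a match of letters is only a description.

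Gene lists of the wider cell state shifted little. The interferon response list had the lowest median of the 24 lists, −0.21, with 23 of 33 genes lower than both mates by any amount, as were 28.1% of all genes. The median difference was −0.07 from the CNOT7 shRNA array and −0.40 from the NOC shRNA array, so that most of it lay against the NOC shRNA array. IFIT1, which binds viral RNA, was the only member past 1.5-fold, at −2.75 against −1.98 and −1.57. MX1, an antiviral GTPase, read −0.73 against −0.38 and 0.48, and OASL, a sensor-associated protein, −5.15 against −4.83 and −3.54.

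NRF2 targets, the genes of the oxidative stress response, had the highest median, 0.21, and it was alike against both mates (0.20 and 0.23). Of 21 measured, 16 were higher than both mates and none lower, where 36.4% of all genes were higher than both. NQO1, a quinone reductase, read −0.05 against −0.24 and −0.49, and SRXN1, which restores peroxiredoxins, 3.15 against 2.39 and 2.90. None was past 1.5-fold from both mates, and NQO1 and SRXN1 lay within row 1.

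Of 22 DNA replication genes, 15 were lower than both mates and 1 higher, by 0.16 log2 or less in a shared direction, with a median of −0.09. Cytosolic ribosomal protein genes were higher than both in 24 of 40 and lower in none, with medians of 0.18 against CNOT7 shRNA and 0.03 against NOC shRNA. The respiratory chain list stood at 0.06 with 18 of 35 genes higher than both. Over all genes, 28.1% were lower than both mates by any amount and 36.4% higher. Medians of the other lists ran from −0.05 for G2/M and mitosis genes to 0.11 for squamous and basal epithelial genes, apart from the CNOT6L-linked mRNAs at 0.16. In all 24 lists TGM3, on 1 of its 2 spots, was the only member past 2-fold.

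**Figure D5:**
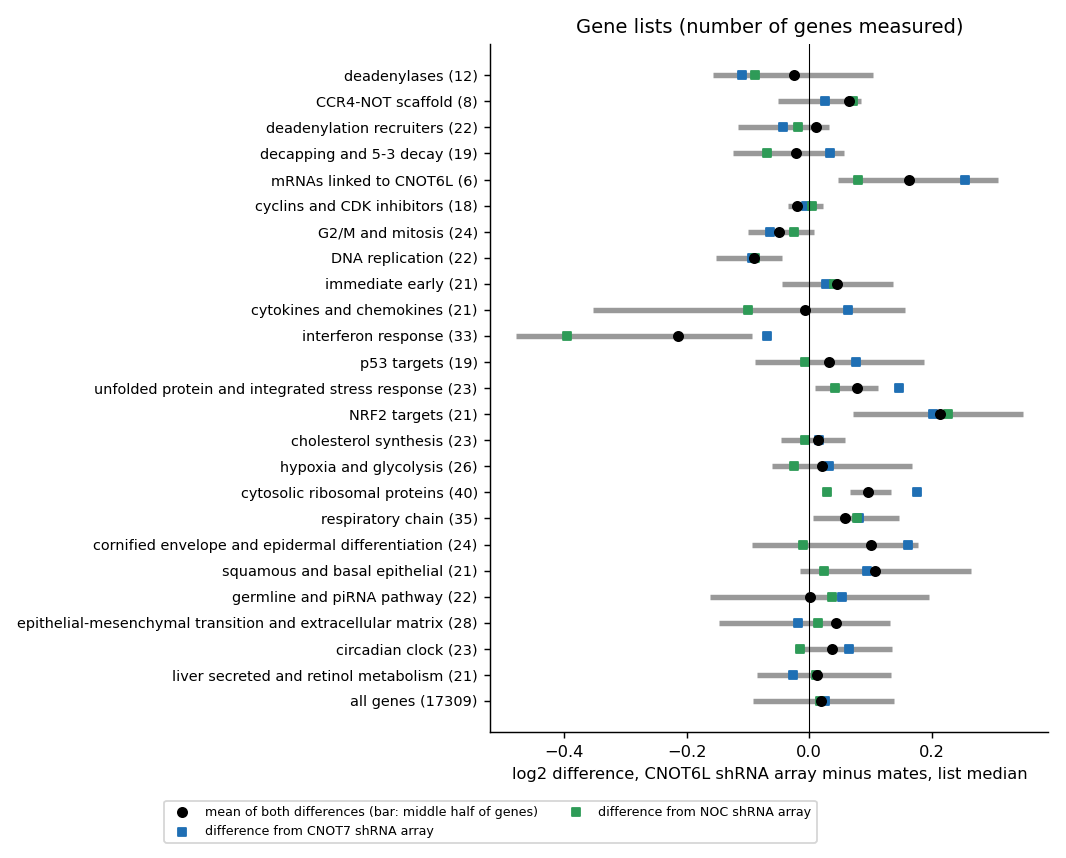
Median log2 difference of the CNOT6L shRNA array from its mates for each of 24 gene lists and for all 17309 genes, with grey bars for the interquartile range of the genes and squares for each mate alone. The interferon response median is −0.21 and the NRF2 target median 0.21, and all others lie between −0.09 and 0.16.

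A few list members past 1.5-fold remained outside these groups. MMP1, an interstitial collagenase, read −4.41 with CNOT6L shRNA against −5.22 and −5.26, on a 10-spot probe with an SD between spots of 0.06, 0.07 and 0.12. It stood above both mates but below all row 1 arrays, which spanned −4.34 to −3.96. FLG, which encodes filaggrin, read −5.03 against −5.99 and −5.95, within row 1. The desmosomal cadherin DSC3 read −6.48 against −5.75 and −5.65 and was lowest of the 7 arrays. KRT1, an epidermal keratin, read −7.40 against −6.58 and −6.71, on spots that differed by up to 2.25 log2.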

How the data were processed

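Total RNA was labelled with Cy3 and hybridised to single-colour Agilent SurePrint arrays, all on 1 slide. Per the file headers, the authors' Feature Extraction 10.7.3.1 files give the intensity of each spot, with the processed signal already background-subtracted. A series table, also deposited, gives log2 values centred per probe over the 7 arrays, and its differences between arrays matched the scanner files within 0.02 log2 for at least 99.6% of probes apart from a shift per array, so it served as an alternative. The column medians of that table ran from −0.02 to 0.09, and how its arrays were normalized is not given in the sources used here.

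From the scanner files, log2 processed signals were set relative to each array's 75th percentile. Control spots and outlier spots were left out, and spots of a probe were averaged. Probes were kept where 50% or more of the spots carried the well-above-background mark on each of the 3 arrays. RefSeq accessions named 24824 probes (19060 symbols). A probe was called when at least 2-fold from both mates in the same direction. With 1 array per group no test was the basis of a call, and a limma fit that pools the mates as 1 arm was an alternative. limma 3.58.1 in R 4.3.3 and Python 3.11.15 were used, and the scripts were tested on simulated data.

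Genes named were the 15 highest and 15 lowest called genes by the smaller difference (14 were called lower), the deadenylases, the CNOT6L-linked mRNAs and called members of 24 lists. Probes whose spots differed by over 1 log2 were given apart. The arrays, lists and rules were chosen with earlier results of these data known, so they give no independent support. The values of 1 list member are not reported here.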

Additional observations from a re-analysis of the deposited data

How the results depend on the processing

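The numbers of probes called higher and lower, 148 and 64, changed by over 1.5 times under several alternatives. They were 7 and 1 at 4-fold, 94 and 104 with quantile normalization, 17 and 6 with normexp, 365 and 126 without the filter on dim probes and with bounds in its place, 93 and 35 with probes above background on all 7 arrays, 386 and 143 without the CNOT7 shRNA array, 239 and 165 without the NOC shRNA array, 65 and 252 with the empty-vector and non-target arrays as reference, and 40 and 23 with limma. Alternatives chosen after the values were seen gave 942 and 366 at 1.5-fold and 52 and 4 in the first 8 grid blocks. The split of calls was 69.8% higher in the main setting, 47.5% with quantile normalization, 59.2% against CNOT7 shRNA alone and 20.5% with the control arrays. Median scaling, the series table, outlier spots, median spots, no scaling, every spot by itself and 1-spot probes alone stayed within 1.5 times.

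The CNOT6L difference kept its direction under all 10 settings that gave it a value and moved only on the second probe, to −0.81 with the control arrays as reference. The 8 probes of CXCL1, CXCL2, CXCL3, CCL20 and SELE stayed below 0 in those same settings, from −1.06 to −0.20 with normexp and from −0.95 to −0.55 without the NOC shRNA array. With the control arrays as reference several called genes changed sign: GNAO1-DT to −0.44, HCG22 to −0.085, EGFEM1P to −0.0404, TSBP1 to −0.27, DCD to −0.0374, HTR4 to −0.21, OR13H1 to 1.20, EVI2A to 0.45, KIR2DS4 to 0.83, CIDEB to 0.45, UMODL1 to 1.06, PCED1B to 0.85, PALM2AKAP2 to 0.38, SUN5 to 0.16, SLC14A1 to 0.52, and 3 noncoding intervals to −0.16, −0.42 and 0.28. Of these, UMODL1 was above background on none of the row 1 arrays, and OR13H1, EVI2A, KIR2DS4, PALM2AKAP2, SUN5, SLC14A1, HTR4 and the interval at 0.28 on only some, so those values are not exact differences. The cause was not tested. No paired analysis was possible because every group has 1 array.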

Other observations

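Brighter genes, with a mean level above −2, gave few differences: of 9851 such genes, 6 were 1.5-fold higher than both mates and 7 lower. These were singled out after their values were seen. NSMAF, a factor of sphingomyelinase signalling, read 1.09 with CNOT6L shRNA, 1.90 with CNOT7 shRNA, 1.94 with NOC shRNA and 2.07 to 2.21 in slide row 1. ANP32B, an acidic nuclear phosphoprotein, read 2.26 against 2.86 and 3.02 and 2.80 to 2.92 in row 1. VCAN, the matrix proteoglycan versican, read −1.18 against −0.47 and −0.25, and MAPKBP1, a JNK-binding scaffold, −1.36 against −0.77 and −0.76. All 4 were lowest of the 7 arrays. The MAPKBP1 probe, on 1 spot, lay in the grid block rich in lower calls, and the 1-spot NSMAF probe in an adjoining block that held lower calls too. NREP was lower by 0.81 and 0.72 on one probe, where it was lowest of the 7 arrays. On another probe it was lower by 0.61 and 0.48 but lay within row 1. SEMA5A read −1.61 against −0.74 and −1.02 and also lay within row 1, which spanned −2.47 to −1.075. APCDD1, described above, was the other lower gene. On the higher side CERS3, a ceramide synthase of the epidermis, stood 0.60 and 0.73 above the mates on one probe and 0.57 and 0.53 on the other. Both CERS3 probes, on 1 spot each, lay in the grid block with the most higher calls (32). The median over dim probes there was 0.36 above each mate, and the second CERS3 probe was dim, at −6.34 with CNOT6L shRNA. The telomere protein POT1 was higher by 0.80 and 0.79, the cystatin CST1 by 0.63 and 0.82, and AP1S1 by 0.90 and 0.59, and with AARD and FGFBP1 these were highest of the 7 arrays.

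EDNRA, an endothelin receptor, EGFEM1P and NPSR1, the neuropeptide S receptor, stood at least 1.5-fold above both mates on 2 probes each, in a series where 4203 genes had 2 or more probes measured. UMODL1 did so too, but its remaining probe was called lower. The 1-spot probes of EDNRA and NPSR1 lay in the same grid block, rich in higher calls, where the median over dim probes was 0.38 above each mate. CXCL2 and SELE were the genes at least 1.5-fold below both mates on 2 probes.

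Among the long intergenic noncoding intervals shown here (build hg19 per the file headers), the widest difference from both mates was at chr11:6764642-6767690, which read −3.94 with CNOT6L shRNA, −6.58 with CNOT7 shRNA and −6.52 with NOC shRNA, and −4.49 to −3.44 in row 1. The probe of this interval, on 1 spot, lay in a grid block rich in higher calls. By the smaller of the 2 differences, the widest on the lower side was at chr9:102563729-102574754, at −7.78 against −5.82 and −5.80. Its probe lay in the grid block rich in lower calls. This reading was within row 1, which spanned −8.19 to −6.73 and was only partly above background. By the mean difference chr9:100778454-100784354 was wider, at −2.01 against −1.96. Where a called interval had other probes, 5 of 6 lay on the same side of 0 for the higher calls and 1 of 3 for the lower. The median over all 6807 such noncoding probes was itself above 0, at 0.12, and these other probes are few.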
